A study of Rattus norvegicus with 6 samples.

Results

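The genes described here are 52 listed genes of DNA replication and S phase, from origin licensing and the replicative helicase to nucleotide supply, G1/S control and the checkpoint that guards replication forks. They were followed in 6 expression arrays of cultured cells from newborn Sprague-Dawley wild-type rats. A gene was measured when the platform's annotation gave a probe set that gene's symbol and no other, and where a gene had several, that with the highest level averaged over the 6 arrays stood for it. This gave 48 of the 52 genes, among 18166 genes in all. Rrm1, Tk1, E2f2 and Blm had no such probe set and were not analysed here.

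The study compared SKPs, sphere-forming precursors from back skin, with NSCPs, Schwann cell precursors from sciatic nerve, each prepared as 3 independent isolates that were hybridised to 1 array apiece. SKPs were grown as spheres at 50000 cells/ml with FGF2 at 40 ng/ml, EGF at 20 ng/ml and, as the protocol text shared by all samples was read, 2% B27 supplement. NSCPs were grown on laminin and poly-D-lysine with 2% N2 supplement, neuregulin-1β at 25 ng/ml and forskolin at 5 μM, an activator of adenylyl cyclase. No group differed in genotype, and all cells came from wild-type animals. The source tissue, the culture medium and the form of growth changed together between the groups, so their effects on the replication genes cannot be told apart. Values below are log2 expression levels made by the authors with RMA.

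DNA replication starts in G1, when the origin recognition complex, Cdc6 and Cdt1 load the MCM helicase onto origins. At the start of S phase Cdc45 and the GINS complex join the MCM ring, DNA polymerases and the sliding clamp PCNA follow the opened fork, and ribonucleotide reductase and thymidylate synthase supply the nucleotides. Most of these genes are transcribed in late G1 and S phase under E2F transcription factors, which the retinoblastoma family holds back in resting cells, so that the transcripts are abundant in dividing cultures and scarce in resting ones. Cultured Schwann cell precursors divide in response to neuregulin together with agents that raise cAMP, and SKPs divide in response to FGF2 and EGF.

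The labels were checked first. Of 8 measured Schwann lineage markers 8 were higher in NSCPs, and of 10 dermal mesenchyme markers 10 were lower. Arrays of a group correlated with each other at 0.984 to 0.993 (Pearson, over genes) and with those of the other group at 0.872 to 0.888. Leukocyte markers moved with the groups as well, with 13 of 15 lower in NSCPs and 0 higher (limma's unadjusted p gave 0 higher too). Their summed log2 level was 135 to 150.4 on the SKP arrays and 76.8 to 78.6 on the NSCP arrays, where 11 of the 15 had a mean within background, among them the pan-leukocyte gene Ptprc and the macrophage genes Cd68 and Adgre1. C1qa and C1qb were the markers not called. The part of these transcripts in the levels of the replication genes was not tested. Background here is a log2 level of 5.5, under which lay the means of 95% of 1344 genes for olfactory or vomeronasal receptors. Endothelial markers had means within background in both groups for 5 of 5 measured genes.

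Many replication genes carry binding motifs of E2F factors near their transcription start, and the RefSeq promoter windows (build GRCr8, 250 bases before to 50 after each start) were searched for them. Windows were found for 42 of the 52 genes, 43 windows in all because Dut has 2. The E2F motif was searched as TTTCCCGC, TTTCGCGC, TTTGCCGC and TTTGGCGC on both strands, and matches on opposite strands can overlap. It was present in 18 of the 43 windows (41.9%), against 2.14% of all 33469 windows and 3.03% of the windows of genes measured on the arrays. The following stretches are the 150 bases upstream of the start of 3 helicase genes with such a match, and of Rfc4. Among measured members with a window and no match, Rfc4 had the largest expression difference. The stretches are read in the direction of the gene, with E2F matches in capitals.
Mcm5, chr19:13488663-13488812, plus strand: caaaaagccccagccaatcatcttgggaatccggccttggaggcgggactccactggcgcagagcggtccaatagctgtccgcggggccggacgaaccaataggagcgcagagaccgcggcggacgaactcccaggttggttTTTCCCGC
Mcm6, chr13:42404353-42404502, minus strand: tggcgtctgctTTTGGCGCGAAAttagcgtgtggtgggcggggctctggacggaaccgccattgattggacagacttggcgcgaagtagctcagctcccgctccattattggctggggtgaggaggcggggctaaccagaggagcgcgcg
Gins1, chr3:160184770-160184919, plus strand: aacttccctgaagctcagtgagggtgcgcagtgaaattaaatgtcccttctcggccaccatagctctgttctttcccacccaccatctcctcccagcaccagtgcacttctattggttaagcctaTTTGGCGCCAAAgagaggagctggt
Rfc4, chr11:91254123-91254272, plus strand: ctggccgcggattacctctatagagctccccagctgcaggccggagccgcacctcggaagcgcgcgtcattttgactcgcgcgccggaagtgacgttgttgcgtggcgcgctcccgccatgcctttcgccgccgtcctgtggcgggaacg

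In Gins1 the capitals hold a palindrome that matches on both strands between bases -25 and -14, where -1 is the last base before the start, and in Mcm6 overlapping matches lie between -139 and -128. Mcm5 has 1 match directly before the start, from -8 to -1, and overlapping matches further upstream between -213 and -202, outside the stretch shown. Of the helicase ring genes Mcm2 to Mcm7, all but Mcm4 had a window, and 5 of those 5 windows held a match. Of 27 matches in the 43 windows 19 lay within 50 bases of the start.

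**Figure D1:**
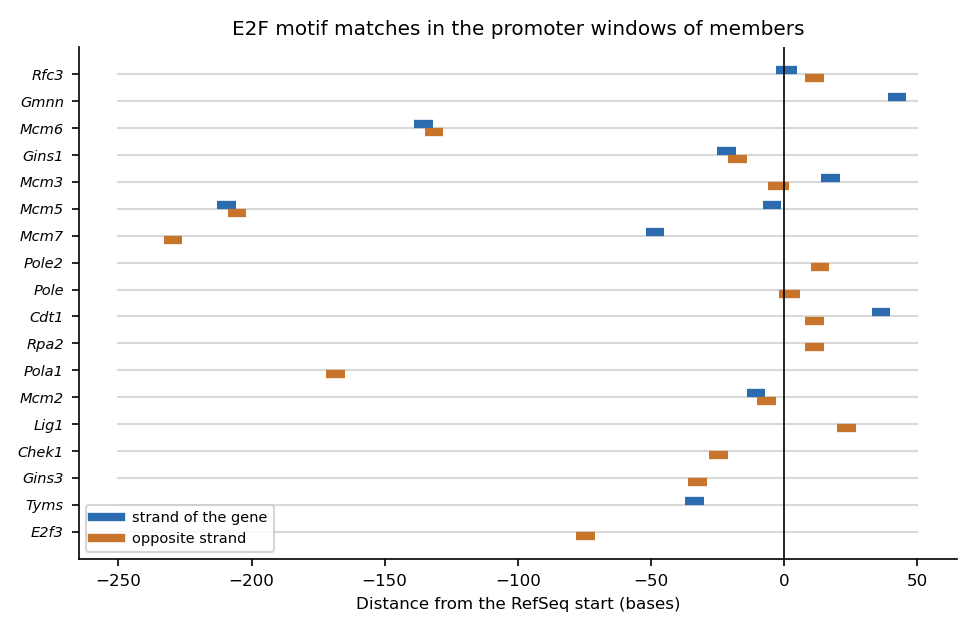
Position of each E2F motif match (bars, coloured by strand) relative to the RefSeq start, in bases, for the 18 members with a match, ordered from the largest to the smallest expression difference. Most matches sit near the start, and members with large differences such as Rfc3 and Gmnn as well as those with small ones such as Tyms and E2f3 have one.

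Other promoter elements were searched in the same windows. The CCAAT box (CCAAT, both strands) was found in 58.1% of member windows and 37.5% of all windows, and the GC box (GGGCGG, both strands) in 62.8% and 33.1%, or 47.3% of the windows of genes on the arrays. The cell cycle homology region (TTTGAA or TTCGAA, both strands), an element of genes that peak in mitosis, was found in 18.6% and 19.7%. The TATA box (TATAAA, both strands) was in 0 of 43 member windows and in 14.2% of all. The median window held 59.7% G and C and 22 CpG dinucleotides among members, against 51.7% and 7 over all windows. Each E2F form searched contains a CpG, as does the GC box. The shares of member windows and of all windows were not matched for CpG or for which start a window covers. A match describes letters in a window and shows neither binding nor regulation. Only the exact letters given were searched, so a window without a match may still hold a variant of the motif.

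Replication genes were higher in NSCPs almost without exception. Of the 48 measured genes 46 were higher in NSCPs and 0 lower by limma at an adjusted p under 0.05 (0 lower at an unadjusted p under 0.05 too), and Orc2 and Brca2 did not pass. Over all genes 25.2% were called higher and 18.6% lower, 43.7% in all. In the same 46 genes every NSCP array lay above every SKP array, a pattern seen in 34.4% of all genes. The median difference was 1.88 on the log2 scale among the 48 genes and 0.14 over all genes. At least 2-fold higher in NSCPs were 43 of the 48, against 7.45% of all genes, and at least 4-fold higher were 22, against 2.33%. Of the 48 genes 41 had a difference above 1.31, the 95th percentile of all genes.

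**Figure D2:**
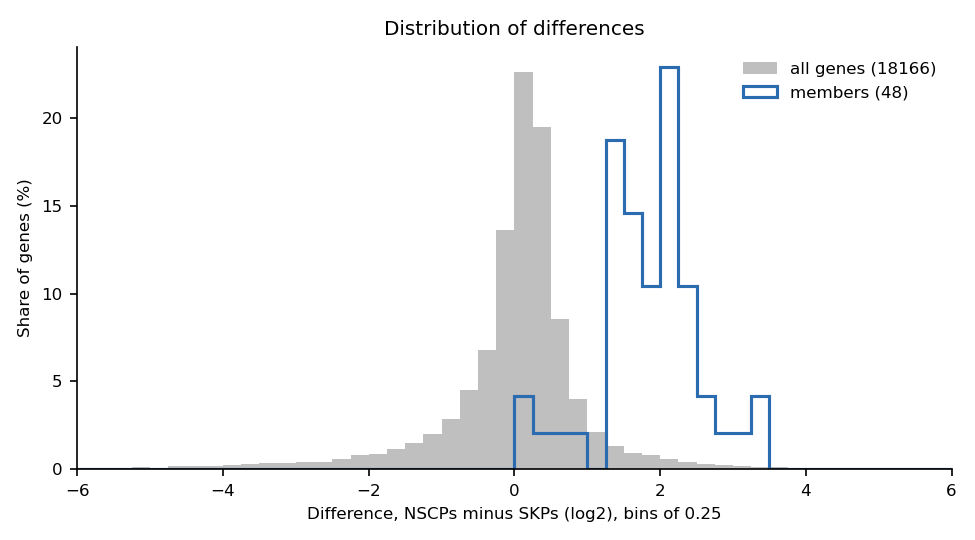
Share of genes (%) by their difference between NSCPs and SKPs on the log2 scale in bins of 0.25, for all 18166 genes (grey) and the 48 measured members (blue line); the axis is drawn from -6 to 6. The members form a group around their median of 1.88, away from the peak of all genes near 0, with a few members close to 0.

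RMA includes a normalization between arrays, so the differences are relative to the other genes on the array. Centring each array on its median moved the median difference of all genes from 0.14 to 0.35 and the share of higher genes among all calls from 57.5% to 75.1%. The share of all genes called higher rose from 25.2% to 44.9%, and the same 46 replication genes were called higher. These are bulk samples, in which fewer dividing cells and less RNA per dividing cell cannot be told apart.

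**Figure D3:**
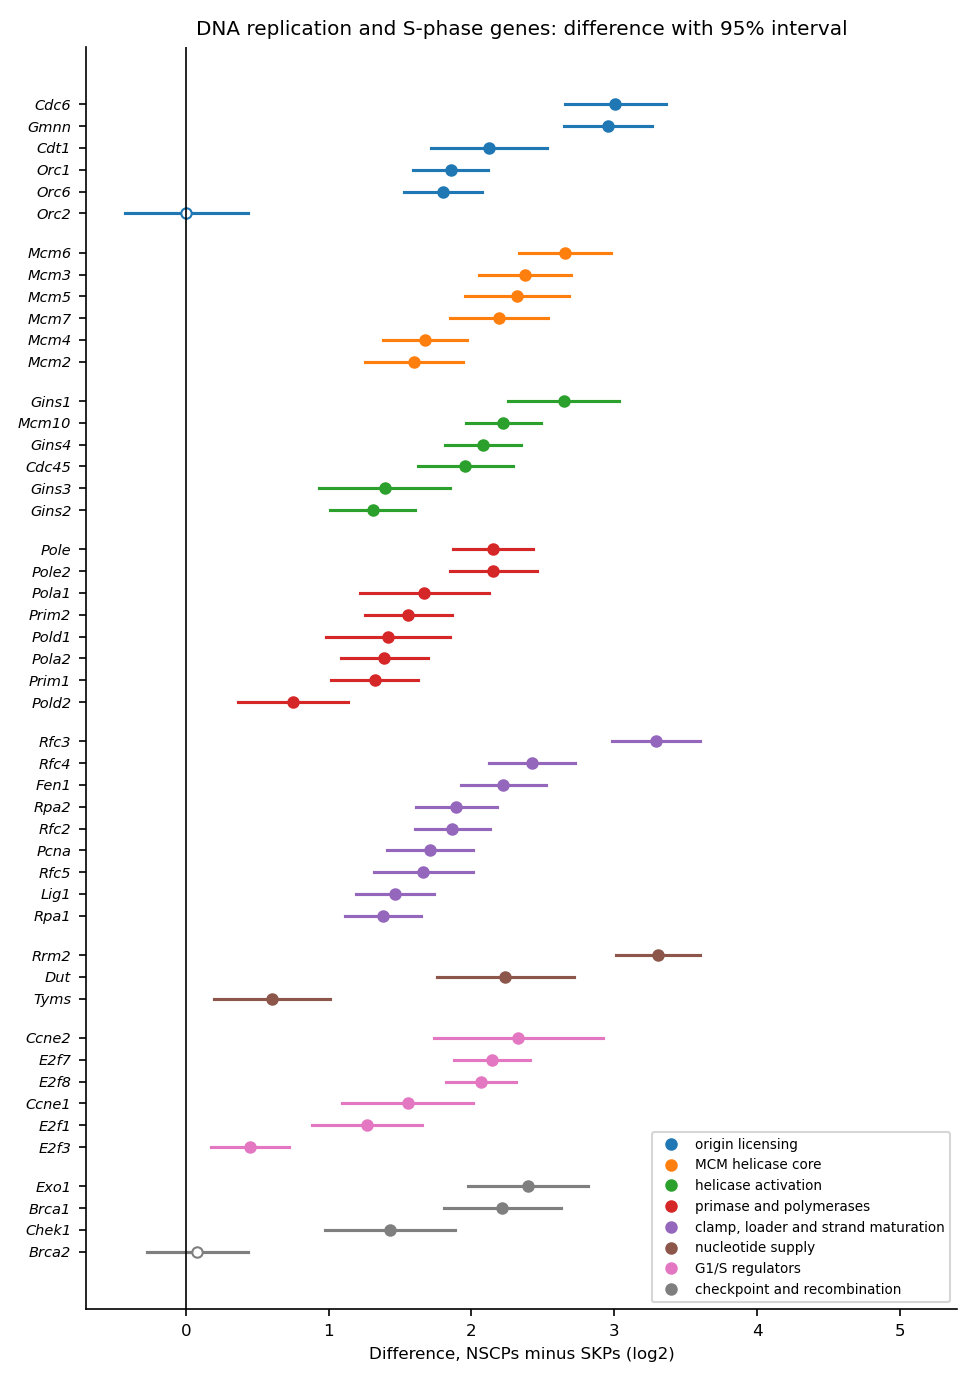
Difference between NSCPs and SKPs (log2, points) with its 95% interval (bars) for the 48 measured members, coloured by role; filled points were called by limma and open points were not. All intervals lie above 0 except those of Orc2 and Brca2.

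Among the licensing factors, Cdc6 and Gmnn differed most. Cdc6 encodes the ATPase that brings the MCM helicase to origins. It stood at 6.35, 6.43 and 6.82 in the SKP arrays and at 9.44, 9.69 and 9.49 in the NSCP arrays. All NSCP values were more than 2 log2 units above the highest SKP value, and the level was 8.05-fold higher (difference 3.01, SE 0.16, limma adjusted p = 1.24e-06). Gmnn encodes geminin, which binds Cdt1 and blocks a new round of licensing once S phase has begun. Its values were 6.34, 6.33 and 6.60 in SKPs and 9.47, 9.22 and 9.45 in NSCPs, a 7.75-fold difference (SE 0.13 on the log2 scale, limma adjusted p = 5.95e-07). The 95% intervals of the loader (2.65 to 3.36) and the inhibitor (2.65 to 3.26) overlapped, and Cdt1 was higher by 2.12 (1.72 to 2.53).

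The subunits of the origin recognition complex behaved unequally. Orc1, the subunit whose level changes through the cell cycle in mammalian cells, was at 5.22, 5.37 and 5.23 in SKPs and 7.11, 7.09 and 7.19 in NSCPs (difference 1.85, SE 0.11). Its SKP mean of 5.28 ± 0.08 (SD, n = 3) lay within background, the only such member, so the fold rests on a background level. Orc6 was 3.49-fold higher. Orc2, a core subunit, stood at 7.96, 7.96 and 8.02 in SKPs and 8.20, 7.53 and 8.21 in NSCPs. The groups overlapped, because NSCP replicate 2 was below and the other NSCP arrays above all SKP arrays, and the difference was 0.0025 (SE 0.19, limma adjusted p = 0.993, 95% interval -0.43 to 0.43). The remaining core subunits, taken from the list of other replisome genes, gave differences of -0.0094 for Orc3 (adjusted p = 0.963) and -0.29 for Orc4 (adjusted p = 0.262), neither called, while Orc5 was higher by 0.59 (limma adjusted p = 0.0205). The intervals of Orc1 and Orc6 (1.53 to 2.07) did not overlap that of Orc2.

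All 6 subunits of the MCM helicase ring were higher in NSCPs, by 1.60 to 2.66. Mcm6 read 7.61, 7.66 and 7.95 in SKPs and 10.35, 10.55 and 10.29 in NSCPs, 6.31-fold higher (SE 0.14 on the log2 scale, adjusted p = 1.44e-06). Mcm3 was 5.18-fold and Mcm5 4.99-fold higher. The smallest differences of the ring were those of Mcm2, with 7.75, 7.85 and 7.81 against 9.17, 9.68 and 9.36 (3.02-fold), and of Mcm4 (3.19-fold). The ring is built from the 6 proteins in equal numbers. The measured differences were not equal, and the intervals of Mcm6 (2.34 to 2.98) and Mcm2 (1.25 to 1.94) did not overlap. Such intervals, here and for other genes, cover the spread between arrays and not how strongly a probe set responds. The 2 probe sets of Rrm2 alone gave 3.31 and 4.14. Unequal differences of probe sets therefore need not be unequal changes of the transcripts. Second probe sets of Mcm3 and Mcm4 gave differences of 2.10 and 1.84, close to the 2.37 and 1.67 of the sets used.

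The factors that turn the loaded ring into a moving helicase were higher in 6 of 6 cases. Gins1, a subunit of the GINS complex, stood at 5.87, 6.31 and 6.43 in SKPs and 8.70, 9.00 and 8.85 in NSCPs, 6.26-fold higher. Mcm10, needed for origin firing, was 4.67-fold higher, and Cdc45, the third part of the active helicase, 3.89-fold. The measured differences of the GINS subunits were also unequal, with Gins4 at 4.24-fold but Gins2 at 2.48-fold (5.99, 5.83 and 6.07 against 7.19, 7.43 and 7.19) and Gins3 at 2.63-fold. The interval of Gins1 (2.26 to 3.03) did not overlap those of Gins2 (1.01 to 1.60) and Gins3 (0.94 to 1.85).

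**Figure D4:**
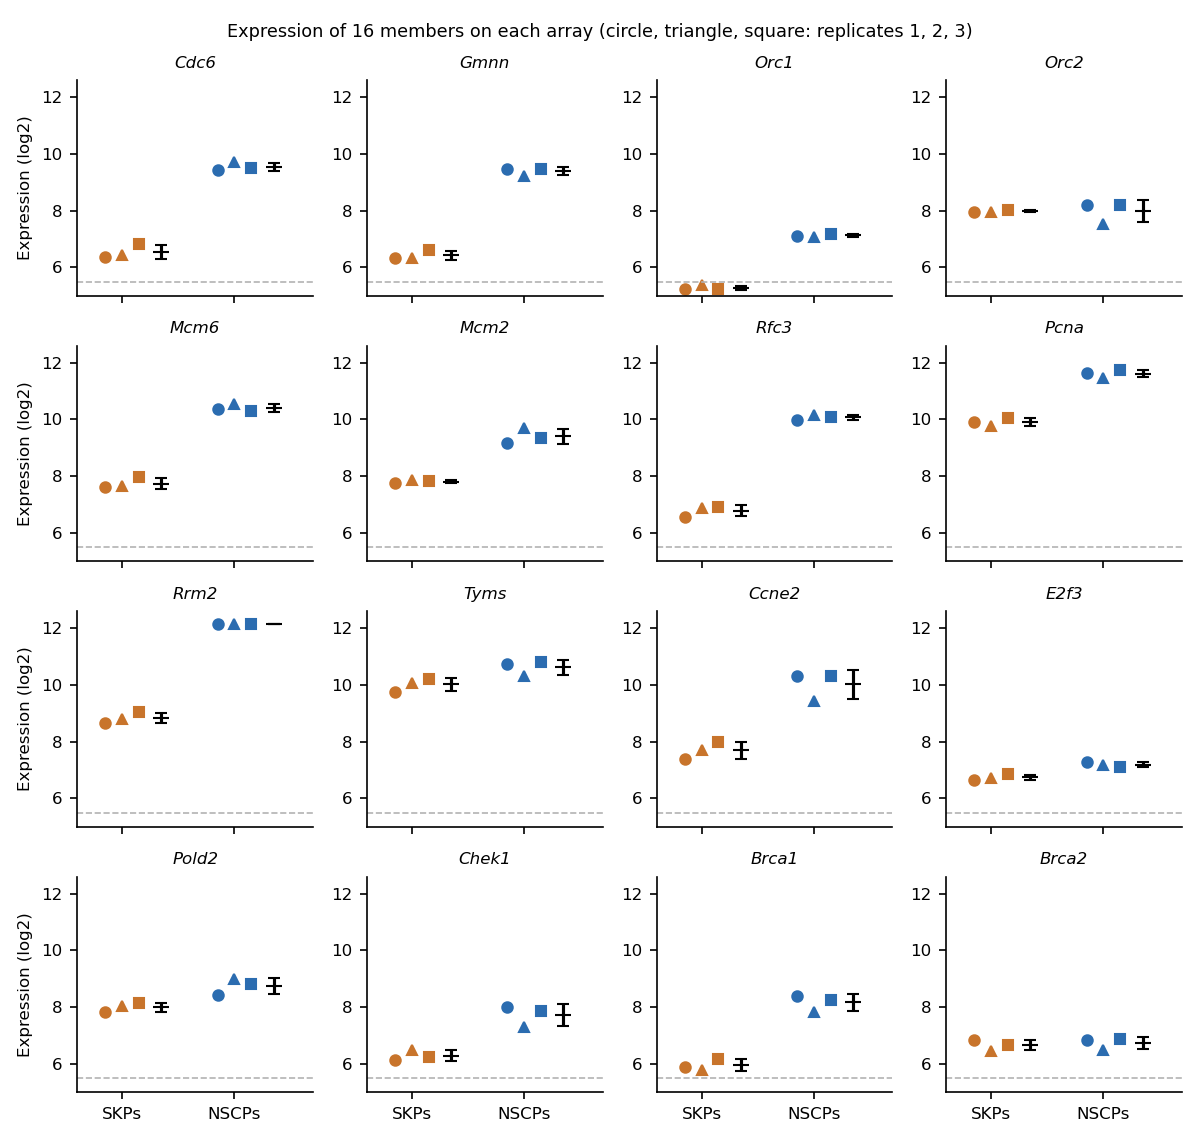
Expression (log2) of 16 members on each array, with SKPs in orange and NSCPs in blue; the marker shape gives the replicate number, black bars are the mean ± SD of 3 arrays and the dashed line is the background level of 5.5. In 14 of the 16 panels the groups do not overlap; they do for Orc2 and Brca2.

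Primase and polymerase genes were higher in 8 of 8 cases, with a median difference of 1.49. Pole, the catalytic subunit of the leading-strand polymerase, was at 6.84, 6.98 and 7.13 in SKPs and 9.16, 9.14 and 9.09 in NSCPs, and its accessory subunit gene Pole2 at 6.13, 6.15 and 6.45 and at 8.49, 8.36 and 8.33. Both were 4.44-fold higher. Of polymerase delta, which makes most of the lagging strand, the catalytic subunit gene Pold1 was 2.66-fold higher and Pold2 1.68-fold (7.83, 8.04 and 8.14 against 8.44, 9.01 and 8.81; limma adjusted p = 0.00699). The intervals of Pold1 (0.98 to 1.85) and Pole (1.87 to 2.43) did not overlap. Of the small subunits of polymerase epsilon, outside the member list, Pole4 was higher by 0.71 and Pole3 differed by 0.47 (limma adjusted p = 0.0973, not called, groups overlapping). Of the delta subunits outside the list, Pold3 was higher by 1.14 and Pold4, whose protein is degraded in S phase and after DNA damage, was lower by 1.65-fold (7.72, 7.38 and 7.43 in SKPs against 6.67, 6.82 and 6.87 in NSCPs). The genes of polymerase alpha and primase, which lay down the first primers, were 2.50-fold (Prim1) to 3.18-fold (Pola1) higher, and a second probe set of Prim1 gave a difference of 1.29 beside 1.32.

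The sliding clamp, its loader and the enzymes of strand maturation were higher in 9 of 9 cases. Rfc3, a small subunit of the clamp loader, had one of the largest differences among the members, with 6.57, 6.87 and 6.92 in SKPs and 9.99, 10.16 and 10.08 in NSCPs, 9.79-fold higher (SE 0.14 on the log2 scale, limma adjusted p = 3.36e-07). Rfc4 followed at 5.37-fold, while the other small subunits Rfc2 and Rfc5 were 3.65-fold and 3.17-fold higher. The large subunit Rfc1, from the list of other replisome genes, differed by 0.61. Pcna, the clamp itself, was already high in SKPs at 9.91, 9.76 and 10.05 and reached 11.63, 11.47 and 11.74 in NSCPs, 3.27-fold higher. Fen1, which trims the flaps of Okazaki fragments, was 4.67-fold and Lig1, which seals them, 2.76-fold higher. Of the single-strand binding proteins Rpa2 was 3.72-fold higher and Rpa1, with the smallest difference of the group, 2.61-fold (8.42, 8.41 and 8.53 against 9.74, 9.91 and 9.85).

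Nucleotide supply held one of the largest differences among the members and one of the smallest. Rrm2 is the small subunit of ribonucleotide reductase and its cell cycle regulated part. It stood at 8.67, 8.79 and 9.03 in SKPs and at 12.13, 12.15 and 12.14 in NSCPs, nearly equal on this probe set. The difference of 3.31 (SE 0.13, limma adjusted p = 2.56e-07) is 9.90-fold. A second Rrm2 probe set gave 4.14, with less equal NSCP values of 10.23, 10.36 and 10.13, so the fold depends on the probe set. Rrm2 and Rfc3 (3.29) have no settled order, since Rfc3 led without SKP replicate 2 (3.33 against 3.28), without NSCP replicate 1 (3.34 against 3.31), after quantile normalization (3.34 against 3.28) and with array weights (3.22 against 3.20). The rat genome has a close copy, Rrm2l1, that shared a further probe set not used here, so part of the signal may come from it. Tyms, thymidylate synthase, was at 9.76, 10.07 and 10.22 in SKPs and 10.74, 10.31 and 10.80 in NSCPs. Its groups were separated by less than 0.1 between the lowest NSCP and the highest SKP array, and the 1.52-fold difference (adjusted p = 0.0241 by limma) missed the threshold without SKP replicate 1, NSCP replicate 1 or NSCP replicate 3, with adjusted p-values of 0.0765, 0.0758 and 0.0864. Dut, which removes dUTP before it can enter DNA, was 4.71-fold higher, with SKP replicate 3 at 7.82 above the others at 7.04 and 7.06.

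The G1/S regulators were higher in 6 of 6 cases. Ccne2, a cyclin that drives entry into S phase, stood at 7.38, 7.72 and 7.97 in SKPs and at 10.33, 9.42 and 10.31 in NSCPs, 5.02-fold higher, and Ccne1 was 2.93-fold higher. Among the E2F factors, E2f7 and E2f8, atypical members that repress E2F targets later in S phase, had the largest differences. E2f7 was at 7.08, 7.06 and 7.25 against 9.27, 9.33 and 9.23 (4.43-fold) and E2f8 at 7.12, 7.10 and 7.16 against 9.23, 9.19 and 9.16 (4.19-fold). The measured differences of the activators were smaller. E2f1 was 2.41-fold higher, with an interval of 0.89 to 1.66 that lies below those of E2f7 (1.88 to 2.41) and E2f8 (1.82 to 2.32). E2f3 was at 6.65, 6.73 and 6.85 against 7.27, 7.19 and 7.10, a difference of 0.45 (SE 0.12, limma adjusted p = 0.0151) that missed the threshold without SKP replicate 1 (adjusted p = 0.0564).

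In the checkpoint and recombination group 3 of 4 genes were higher. Exo1, an exonuclease of mismatch repair and end resection, read 5.41, 5.97 and 5.94 in SKPs and 8.37, 7.96 and 8.19 in NSCPs, 5.27-fold higher. Brca1, which acts in homologous recombination and fork protection, was at 5.89, 5.78 and 6.18 and at 8.41, 7.84 and 8.27, 4.65-fold higher. Chek1, the kinase that restrains origin firing when forks stall, was 2.69-fold higher. Brca2, which loads the recombinase onto resected ends, stood at 6.85, 6.47 and 6.69 in SKPs and 6.85, 6.51 and 6.89 in NSCPs. Its groups overlapped throughout, with a difference of 0.08 (SE 0.15, limma adjusted p = 0.698, 95% interval -0.27 to 0.43). The interval of Brca2 therefore excludes the difference measured for Brca1, whose lower bound was 1.81.

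Among the SKP arrays, single ones stood high or low across many members. In SKPs, replicate 3 had the highest value of its group for 38 of the 48 genes and the lowest for 0, whereas over all genes it was highest for 31.7%. Replicate 1 was lowest for 30, against 40% of all genes. The median level over the 48 genes was 7.01, 7.06 and 7.24 in SKP replicates 1, 2 and 3, and the summed level of the leukocyte markers on the same arrays was 150.4, 135.0 and 139.2. In NSCPs the medians were 9.16, 9.10 and 9.12. NSCP replicate 2 was highest of its group for 25 of the 48 genes (43.2% of all genes) and lowest for 17 (33.3% of all genes). Replicates 1 and 3 were highest for 13 and 10. The counts of NSCP replicate 2 were not far from its shares of all genes, so they are not particular to the members. NSCP replicate 2 also had a mean absolute deviation from the group mean of 0.18 over the 48 genes against 0.12 and 0.08 for replicates 1 and 3. Over all genes the order was the same, with 0.17 for NSCP replicate 2 against 0.14 and 0.12. On NSCP replicate 2, Ccne2, Pola1, Orc2, Chek1 and Brca1 were at least 0.5 lower than the mean of the other NSCP arrays. Only Pold1 (0.57) was at least 0.5 higher. At a cut of 0.3, Tyms, Brca2 and Exo1 joined the lower genes, and 10 genes, among them Pold1, Rfc5, Mcm2, E2f1 and Mcm7, were higher. The share of all genes beyond these cuts was not counted. Without NSCP replicate 2 the same 46 genes were called and Orc2 and Brca2 were again not.

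Related genes outside the list were examined for how far the pattern extended. Of 29 measured other replisome genes 24 were higher, 2 lower and 3 not called, with a median difference of 1.14. The checkpoint mediator Clspn was 6.11-fold, the origin firing factor Ticrr 5.22-fold and Dtl, part of the ligase that destroys Cdt1 in S phase, 5.01-fold higher. Lower beside Pold4 was Top1, which relaxes DNA ahead of forks and of transcription, by 1.40-fold (limma adjusted p = 0.0405). This call was lost in 11 of 18 alternatives, among them those without SKP replicate 1, 2 or 3 or NSCP replicate 2 or 3 (adjusted p from 0.067 to 0.116), which left 1 lower gene. Of 13 other genes of S-phase nucleotide supply and chromatin 12 were higher and 0 lower, and limma's unadjusted p put 0 lower too. Their median was 1.58. Uhrf1, which guides maintenance methylation behind the fork, was 8.69-fold higher, and the histone chaperones Asf1b and Chaf1a 5.45-fold and 4.34-fold. Of 20 other checkpoint and recombination genes 13 were higher, 1 lower and 6 not called. Bard1, the partner of Brca1, was 5.81-fold higher, Fanci 4.66-fold and Fancd2 4.59-fold, while Hus1, a subunit of the checkpoint clamp, was 2.12-fold lower.

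The E2F and retinoblastoma network moved in both directions. Of 18 measured genes 14 were higher, 3 lower and 1 not called. Fbxo5, an inhibitor of the anaphase-promoting complex, Ccna2, the S-phase cyclin, and the transcription factor gene Mybl2 were 5.93-fold, 5.70-fold and 4.60-fold higher. The 3 lower genes encode subunits of the complex that represses E2F targets in resting cells, but other subunits of it were higher: Lin52 by 0.71, Lin54 by 0.97, Tfdp1 by 0.93, Tfdp2 by 1.66, E2f5 by 1.59 and, from the chromatin list, Rbbp4 by 1.45. The subunits of this complex thus did not move in 1 direction. E2f4 stood at 8.66, 8.47 and 8.49 in SKPs and 7.55, 7.85 and 7.86 in NSCPs (1.72-fold lower, SE 0.13 on the log2 scale, limma adjusted p = 0.00162). Rbl2, which encodes p130, was at 9.46, 9.10 and 9.29 against 8.76, 8.44 and 8.58 (1.62-fold lower, adjusted p = 0.0044), and Lin37 was 1.44-fold lower (adjusted p = 0.0085). The groups of all 3 did not overlap, in a direction seen in 22.1% of all genes. Rbl1, the relative of Rbl2 that cycling cells express, was higher by 1.12 and Rb1 by 0.47.

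**Figure D5:**
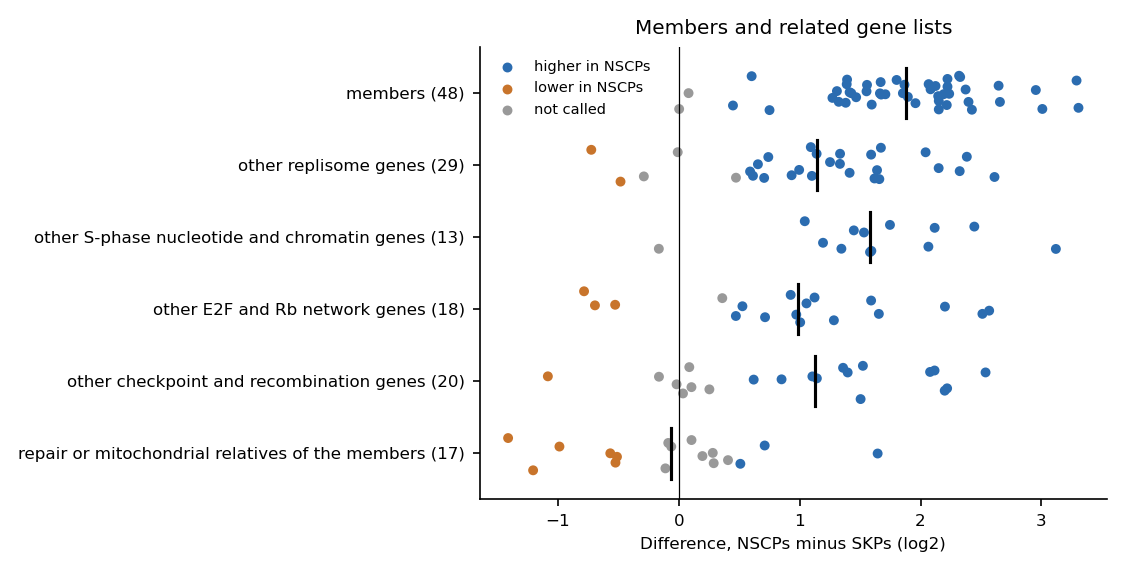
Difference between NSCPs and SKPs (log2) for the 48 members and 5 lists of related genes, one point per gene with its call by limma as colour; black bars are the list medians and the numbers of measured genes are in brackets. The medians are 1.88 for members and between 0.99 and 1.58 for the lists of replication, E2F and checkpoint genes, and -0.06 for the repair or mitochondrial relatives.

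Relatives that serve repair or mitochondria rather than the replication fork did not follow the members. Of 17 measured relatives 3 were higher, 6 lower and 8 not called, with a median difference of -0.06. Over all genes 25.2% were called higher and 18.6% lower. With arrays centred on their medians 8 relatives were higher and 3 lower, and 44.9% of all genes were higher. Without SKP replicate 3, too, 3 relatives were lower. Mcm8, a helicase of recombination, was 3.13-fold higher and Poll, a repair polymerase gene, 1.42-fold. Lower genes included Rev3l, the catalytic subunit of a translesion polymerase (2.66-fold), and Lig4, the ligase of end joining (2.31-fold). In 6 of 8 pairs of a member and a relative both genes were measured, and the member's level minus the relative's was compared between the groups with an exact permutation test. The pair of Tk1 and Tk2 (difference of Tk2 -0.06, limma adjusted p = 0.756) and that of Mcm2 and Mcm9 could not be formed. Since levels of different probe sets are not comparable, the gap itself cannot be read, only its change between the groups. Probe sets can also differ in how strongly they respond. A changed gap is therefore an unequal measured difference and need not be an unequal change of the transcripts. For Rrm2 and its relative Rrm2b, induced by DNA damage, the gap was 0.53, 0.99 and 0.83 in SKPs and 3.10, 3.71 and 3.32 in NSCPs, so the difference of Rrm2 was larger by 2.60, although Rrm2b was itself higher by 0.71. The difference of Lig1 was larger than that of Lig3 by 1.27 and than that of Lig4 by 2.67, and that of Pola1 larger than that of the repair polymerase gene Polb by 1.38. The difference of E2f1 was larger by 2.06 than that of E2f4, which was lower. That of Chek1 was larger by 0.81 than that of Chek2, which was itself higher by 0.62 (limma adjusted p = 0.00789). E2f4 and Chek2 come from the lists of E2F network and checkpoint genes and are not among the 17 relatives. In all 6 pairs the gap on the 3 NSCP arrays lay above that on the 3 SKP arrays, and each exact 2-sided permutation p was 0.1 (0.1 after Benjamini-Hochberg adjustment over 6 pairs), the smallest that 3 against 3 arrays can give.

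The members with an E2F match in the promoter window had a median difference of 2.14 (18 genes, from 0.45 to 3.29), and the 22 measured members with a window and no match had a median of 1.69, from 0.0025 to 2.43. Rfc3, Gmnn, Mcm6 and Gins1, all with a match, lay above every member whose window holds none, and Orc2 and Brca2 below every member with one. The others with a window lay in the range shared by both. The 10 listed genes without a window, among them Rrm2 (3.31) and Cdc6 (3.01) as well as E2f1 (1.27), are not in this ranking. Tyms and E2f3, which had among the smallest differences, both carry a match, at -37 to -30 and at -78 to -71. Rfc4 and Exo1, whose windows lack the exact letters searched, differed by 2.43 and 2.40. Variants of these letters were not searched, so the lack of a match does not show the lack of an E2F site. The windows of Orc2 and Brca2 held no match; that of Orc2 does not lie at the outermost annotated start of the gene, and only 11 of the 43 windows do.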

How the data were processed

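RNA of 6 cultures, 3 of SKPs and 3 of NSCPs, was measured on 1-colour expression arrays, 1 array per culture, with cDNA made from 400 ng of total RNA, per the labels' protocols. The deposited values are log2 expression levels per probe set; the submitters' processing notes name oligo and RMA as the authors' tools, without versions. The table held 36685 probe sets, of which 18511 had 1 gene symbol, 575 several and 17599 none here; 18394 symbols were updated by Entrez ID to RefSeq (GRCr8) and 117 kept as given.

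For 291 genes with several probe sets the one with the highest mean was kept. The groups were compared in limma 3.58.1 (lmFit, then eBayes, 2-sided tests, R 4.3.3), with p-values adjusted by Benjamini-Hochberg over 18166 genes, with a threshold of 0.05. "Higher" and "lower" are used for genes that passed. The fit was tested on simulated data. Promoter sequences are RefSeq's. The members, lists and motifs were chosen with earlier results of these data known. Named in each role group are the 2 members with the largest and the 1 with the smallest difference, every member that was not called, overlapped or lay within background, and, in other lists, up to 3 genes with the largest difference and up to 3 against the majority; Orc3, Orc4, Orc5, Pold3, Pole3, Pole4, Rfc1, Rb1, Rbl1, Lin52, Lin54, Tfdp1, Tfdp2, E2f5, Rbbp4 and further members were named after their values were seen. The number of arrays limits the precision. Alternatives left out each array, used the replicate number as a block, renormalized or centred the arrays, filtered dim genes, averaged probe sets, adjusted over all probe sets, changed the prior, weights and threshold, and used limma's treat.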

Additional observations from a re-analysis of the deposited data

How the results depend on the processing

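Of 1350 values of 75 named genes under 18 alternatives 1289 kept direction and side of the threshold, and 34 members were higher under all 18. With 1 array left out 44 to 46 members were higher; Tyms and E2f3 were the members whose calls changed. With the replicate number as a block 46 members were higher. In either direction 7681 genes were called, against 7945 without the block, and 24.1% of all genes were higher, against 25.2%. Over all genes, the deviations of isolates with the same number from their group means hardly correlated (0.0372, 0.0501 and 0.0283). As tissue and medium differed between the groups, these values cannot show whether such isolates were prepared together. limma's treat called 43 members higher at 1.5-fold and 34 at 2-fold. Over all genes it called 2903 and 1758 in either direction, and 1295 and 714 of these were higher (7.13% and 3.93% of all genes). Of all alternatives 8 values turned direction, none of them called: Orc2 between -0.11 and 0.23 with 1 array left out, Brca2 between -0.018 and 0.20, and Tk2 between -0.17 and 0.042, at 0.098 after quantile normalization and at 0.14 after median centring. After centring Lig3 (0.40) and Polb (0.49) were called. Lower replisome genes numbered 1 to 2 with 1 array left out, 1 with the replicate block, with centring, over all probe sets and at 0.01, and 0 with treat at 1.5-fold and 2-fold, where 10 were higher at 2-fold. E2F network genes numbered 9 higher and 0 lower at 1.5-fold, and 5 and 0 at 2-fold. Other checkpoint genes numbered 7 higher and 0 lower at 2-fold. Relatives numbered 3 to 6 lower with 1 array left out, 8 higher and 3 lower after centring, 3 lower at 0.01, 1 higher and 2 lower at 1.5-fold, and 1 and 0 at 2-fold. The E2F motif was in 20.9% of member windows cut to the 150 bases before the start (1.14% of all) and in 23.3% on the given strand (1.11%). The CCAAT box was in 30.2% on the given strand (20.9% of all) and, at outermost starts, an alternative chosen after seeing the data, in 72.7% (38.1%). The cell cycle homology region was in 9.3% of 150-base windows (9.74%), in 18.6% on the given strand (11.6%) and in 1 of 11 windows at outermost starts (9.09% against 21.3%). Causes were not tested, except that treat asks for a larger difference and shorter or 1-strand searches cover fewer bases. A level within background bounds the fold of Orc1, that of Exo1 starts from a level near background, and 3 arrays a group limit the precision.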
